A study of Mus musculus with 20 samples.

Results

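Microglia that carry the BRAF V600E mutation were compared with control microglia at 2 stages, and the comparison asked which mutant changes were seen late, which early and which at both. The quantity is the genotype by stage interaction, that is, the VE minus Ctrl log2 difference at end-stage (ES) minus the VE minus Ctrl log2 difference at 2 months. All 20 of the 20 libraries of the series entered it, 10 labelled cortex and 10 labelled brainstem, with 1 library of each region from each of 10 mice. VE mice carried Cx3cr1CreER (CX3 HET) and the Braf LSL-V600E allele (Braf VE), and there were 2 at ES and 3 at 2 months. Ctrl mice also numbered 2 at ES and 3 at 2 months. At 2 months all 3 Ctrl mice were labelled Braf WT; CX3 HET, when matched to a title by the mouse number of the count column. Under that match they had Cre without the Braf allele. The records of the libraries themselves name VE for M2618 and M2633, and Ctrl for VE mice M2617 and M2621. At ES, Ctrl mouse M1521 was labelled Braf WT; CX3 HET too, whereas Ctrl mouse M1375 was labelled Braf VE; CX3 WT, so it had the Braf allele without Cre. Pregnant females received 1 injection of 4-hydroxytamoxifen at 37.5 mg per kg on embryonic day 9.5 (E9.5), which lets CreER act in Cx3cr1-expressing cells, yolk sac progenitors of microglia among them. For the age of the ES mice and the sorting of the cells, nothing was given in the sources used here.

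Microglia are the resident macrophages of the brain and hold a homeostatic transcript profile that includes purinergic receptors such as P2ry12. BRAF is a kinase of the RAS-ERK cascade, V600E makes it constitutively active, and in people the mutation in myeloid cells causes histiocytoses that can be followed by neurodegeneration. Macrophages in damaged tissue are known to change over time, through proliferation, interferon response and the uptake and export of lipid, and these programs were followed here as gene lists.

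The labels of the 2-month mice conflict. Of the 6 mice in the 2-month groups, 5 carry 1 number in the sample title and another in the name of the count column. Reading genotype from the record instead of from the column's mouse number changes genotype for 4 of them. The values below use the mouse number of the column, and the ES groups are the same under both readings. Read from the record, 75 genes passed the cortex interaction in place of 44, 22 of the 44 passed again and 39 of 44 kept their sign. Under that reading 1 gene passed at 2 months in cortex-labelled libraries, so 70 genes were late, 0 early and 0 constant. With only the 6 mice whose genotype is the same under both readings, 4 at ES and 2 at 2 months, 2 genes passed the interaction, and all 44 kept their sign. Among the late genes described below, the interaction of Abcg1 was 2.36 under the record reading (adjusted p = 0.0082), that of Apoe 7.50 (0.0082), Postn 4.79 (0.0239), Bambi 4.81 (0.00173), Dusp1 3.18 (0.00183) and P2rx1 −3.97 (0.0082). Others did not pass it, with 4.39 for Igf1 (adjusted p = 0.381), 1.18 for Frat2 (0.235), 1.36 for Rgs1 (0.145), −3.60 for Nid2 (0.0931) and −1.27 for Pecam1 (0.491). Of the 29 late genes 19 were late again, 7 were undecided and 3 were called at neither stage, and none of the 11 early genes was called at either stage, with interactions of −0.94 for Ccnb1 (adjusted p = 0.909) and −0.13 for Cenpa (0.991). The early, graded and constant calls below, and 10 of the 29 late calls, therefore rest on the mouse-number reading.

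The cells were checked against the targeted gene and markers. Braf had 17.9 and 13.7 CPM in VE cortex-labelled libraries at ES against 15.6 and 5.95 CPM in Ctrl, and 16.3, 5.74 and 11.2 CPM in VE at 2 months against 14.7, 12.8 and 16.5 CPM in Ctrl, with no test passed. A count per gene does not tell the V600E allele from the normal one, so it checks no label. Transcripts of 9 microglial markers summed to 40900 to 66300 CPM in every library, CPM being counts scaled by library total and edgeR's TMM factor. The hindbrain patterning genes of the Hox family, 14 in the list, gave a sum of 0.6 to 4.04 CPM in cortex-labelled libraries and 0.325 to 1.19 CPM in brainstem-labelled ones, against the label, so libraries are called by their label throughout. Library totals ran from 9395203 to 21171114 counts, and a count of 0 allows up to 3 counts. Scaled by library total without the TMM factor, that is 0.142 to 0.319 CPM. The 4 ES mice had almost no Y-linked transcripts, while 3 of the 6 mice at 2 months did, and with Y-linked transcript level as a covariate 43 of the 44 interaction calls held.

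In cortex-labelled libraries 44 of 16595 tested genes passed the interaction (0.265%), 16 of them positive (0.0964%) and 28 negative (0.169%), by edgeR's quasi-likelihood test at a Benjamini-Hochberg adjusted p under 0.05. The genotype difference at ES passed for 666 genes (4.01%), of which 304 were higher in VE (1.83%) and 362 lower (2.18%). At 2 months it passed for 904 genes (5.45%), of which 604 were higher (3.64%) and 300 lower (1.81%). Genes that passed at ES without passing at 2 months, with an interaction that passed in the same direction, are called late, and the mirror case early. Constant genes passed at both stages in 1 direction with no interaction call, and graded genes passed all 3 tests. By these rules 29 genes were late, 11 early, 4 graded and 249 constant (1.5% of tested genes), and 0 were called in opposite directions. Not passing at a stage does not show that there was no difference. VE and Ctrl values did not overlap at 2 months for 10 of the 29 late genes, nor at ES for 5 of the 11 early genes. The share of all tested genes without overlap was not counted. Groups of 2 or 3 libraries often stand apart without a true difference, so these counts are a description only. The other 384 genes called at ES and 640 called at 2 months had no interaction call, so the data did not decide whether their difference changed with stage.

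**Figure D1:**
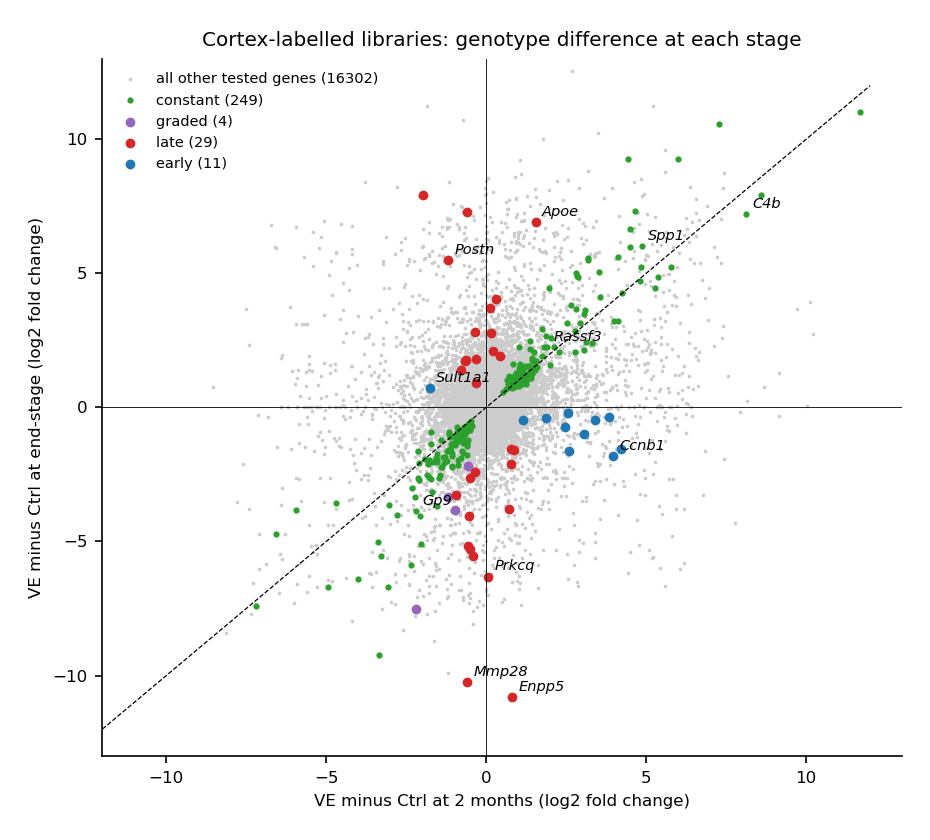
Genotype difference at ES (vertical axis, log2) against that at 2 months (horizontal axis, log2) for the 16595 genes tested in cortex-labelled libraries, 1 point per gene, coloured by class. The 249 constant genes mostly lie along the dashed line of equal differences. The 29 late genes lie closer to 0 on the horizontal axis than on the vertical one, and the 11 early genes the reverse.

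Changes at 1 stage mostly pointed the same way at the other. Of the 904 genes called at 2 months, 88.8% had the same sign at ES, and of the 666 called at ES, 90.1% had the same sign at 2 months, against 61.2% of all tested genes. The 253 genes called at both stages all kept their direction and made up 38% of the calls at ES and 28% of those at 2 months. Among undecided genes, 333 of 384 called at ES had the same sign and a smaller difference at 2 months. Likewise 550 of 640 called at 2 months had the same sign at ES. The late and early classes differed from this: 14 of the 29 late and 0 of the 11 early genes had the same sign at the other stage. Opposite signs enlarge the interaction that defines these 2 classes, so their signs are a description.

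The late genes that rose in VE included lipid carriers and a sterol exporter. Abcg1, which exports cholesterol from macrophages, had 161 and 176 CPM in VE cortex-labelled libraries at ES, against 23.5 and 25 CPM in Ctrl. At 2 months it had 25, 15.7 and 19 CPM in VE and 34.2, 16.9 and 24.9 CPM in Ctrl. Both VE libraries at ES stood far above every other cortex-labelled library, and the groups at 2 months overlapped. Its interaction was 3.14 ± 0.36 (SE, adjusted p = 0.00184), made of a log2 difference of 2.80 at ES and −0.35 at 2 months, and it passed in all 10 fits that left out 1 mouse. In brainstem-labelled libraries Abcg1 had 163 and 103 CPM in VE and 127 and 114 CPM in Ctrl at ES, so the groups overlapped.

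Apoe, the lipid carrier that microglia secrete, had 95400 and 103000 CPM in VE cortex-labelled libraries at ES, against 662 and 995 CPM in Ctrl. Values at 2 months were 6180, 1230 and 3270 CPM in VE and 1560, 1240 and 870 CPM in Ctrl. At ES Apoe alone made up 9.47% and 9.12% of all counts in the 2 VE libraries, and at 2 months the groups overlapped. The interaction was 5.35 ± 0.88 (adjusted p = 0.0145), and it missed the threshold without Ctrl mouse M1375 (adjusted p = 0.0899). Brainstem-labelled VE libraries had 2940 and 6100 CPM of Apoe at ES, against 182 and 702 CPM in Ctrl, but its interaction there did not pass (3.38 ± 0.85, adjusted p = 0.72).

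Fabp5, an intracellular fatty acid carrier, had 34.4 and 27.5 CPM in VE at ES, against 1.91 and 2.81 CPM in Ctrl, and lay between 2.25 and 3.77 CPM in all 6 libraries at 2 months. The growth factor Igf1 had 15.2 and 8.2 CPM in VE at ES, against 0 and 0.0684 CPM in Ctrl, and at most 1.2 CPM at 2 months. Both were high in the 2 VE libraries at ES and low in the other cortex-labelled libraries. The interaction was 3.57 ± 0.71 for Fabp5 (adjusted p = 0.0408) and 9.90 ± 1.81 for Igf1 (adjusted p = 0.0271), whose controls are near 0 counts, and they passed in 2 and 4 of the 10 fits without 1 mouse.

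Other late genes that rose encode matrix proteins or signal regulators. Postn, the matrix protein periostin, had 68.5 and 36.4 CPM in VE at ES, against 1.06 and 1.23 CPM in Ctrl. At 2 months it was lower in all 3 VE libraries (3.36, 2.15 and 6.74 CPM) than in the 3 Ctrl libraries (9.84, 9.77 and 8.46 CPM), a difference that did not pass (log2 −1.19, adjusted p = 0.152). The groups therefore did not overlap at either stage, and they stood in opposite order. Its interaction of 6.69 ± 0.82 (adjusted p = 0.00186) passed in all 10 fits without 1 mouse. Tgfbi, a matrix protein induced by TGF-beta, had 244 and 297 CPM in VE at ES, against 70.4 and 56.9 CPM in Ctrl, and 45.7 to 78.4 CPM at 2 months (interaction 1.88 ± 0.33, adjusted p = 0.0198).

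Bambi, a decoy receptor for TGF-beta family ligands, had 61.3 and 43.1 CPM in VE at ES, against 2.65 and 3.56 CPM in Ctrl, and 5.03 to 11.7 CPM at 2 months. Dusp1, a phosphatase that switches off MAP kinases, had 65.9 and 52 CPM in VE at ES, against 8.68 and 8.76 CPM in Ctrl, and 10.1 to 20.1 CPM at 2 months. Both VE libraries at ES lay above every other cortex-labelled library for each gene. Interactions were 3.76 ± 0.57 for Bambi (adjusted p = 0.00698) and 2.60 ± 0.39 for Dusp1 (adjusted p = 0.00672), and each was lost only without Ctrl mouse M1375 among the fits that left out 1 mouse.

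Frat2, an activator of Wnt signalling, had 17.2 and 14.7 CPM in VE at ES, against 4.34 and 5.06 CPM in Ctrl, and 7.33 to 19.8 CPM at 2 months. In brainstem-labelled libraries it had 15.6 and 12.2 CPM in VE at ES, against 3.37 and 3.47 CPM in Ctrl, and 8.89 to 12 CPM at 2 months. The 2 VE libraries at ES were above both Ctrl libraries in each region, and the stages differed in Ctrl as well. The interaction was 2.39 ± 0.41 in cortex-labelled libraries (adjusted p = 0.0171) and 2.03 ± 0.41 in brainstem-labelled ones, where it did not pass (adjusted p = 0.37). With mouse as a block the cortex interaction had an adjusted p of 0.0512. Rgs1, a regulator of G protein signalling (2.39), the membrane protein Pianp (7.89), the amyloid precursor-like gene Aplp2, the polyamine oxidase gene Paox, Pid1 and the ubiquitin ligase gene Rnf128 completed the 15 late genes that rose. At 2 months Rgs1, Rnf128 and Pid1 were lower in all VE than in all Ctrl cortex-labelled libraries (log2 −0.65, −0.79 and −0.32), but did not pass. Among markers of other cells, those of oligodendrocyte precursors summed to 37.3 to 88.2 CPM in VE cortex-labelled libraries at ES against 5.82 to 6.57 CPM in Ctrl, nearly all of it Cspg4 in VE (37 and 87.8 CPM, against 0.212 and 1.16 CPM in Ctrl). The other tested precursor markers did not follow Cspg4: of 4 tested, 1 was above 0 at ES, and the median log2 difference was −4.94. That median depends on counts near 0, and was −3.15 with genes at 0 counts in a group set to their limit. Olig1, a transcription factor of that lineage, had 0 and 0.325 CPM in VE at ES against 2.97 and 3.76 CPM in Ctrl. At 2 months the markers summed to 0.428 to 3.43 CPM in VE and 1.1 to 3.99 CPM in Ctrl. Their part in the late genes was not tested.

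**Figure D2:**
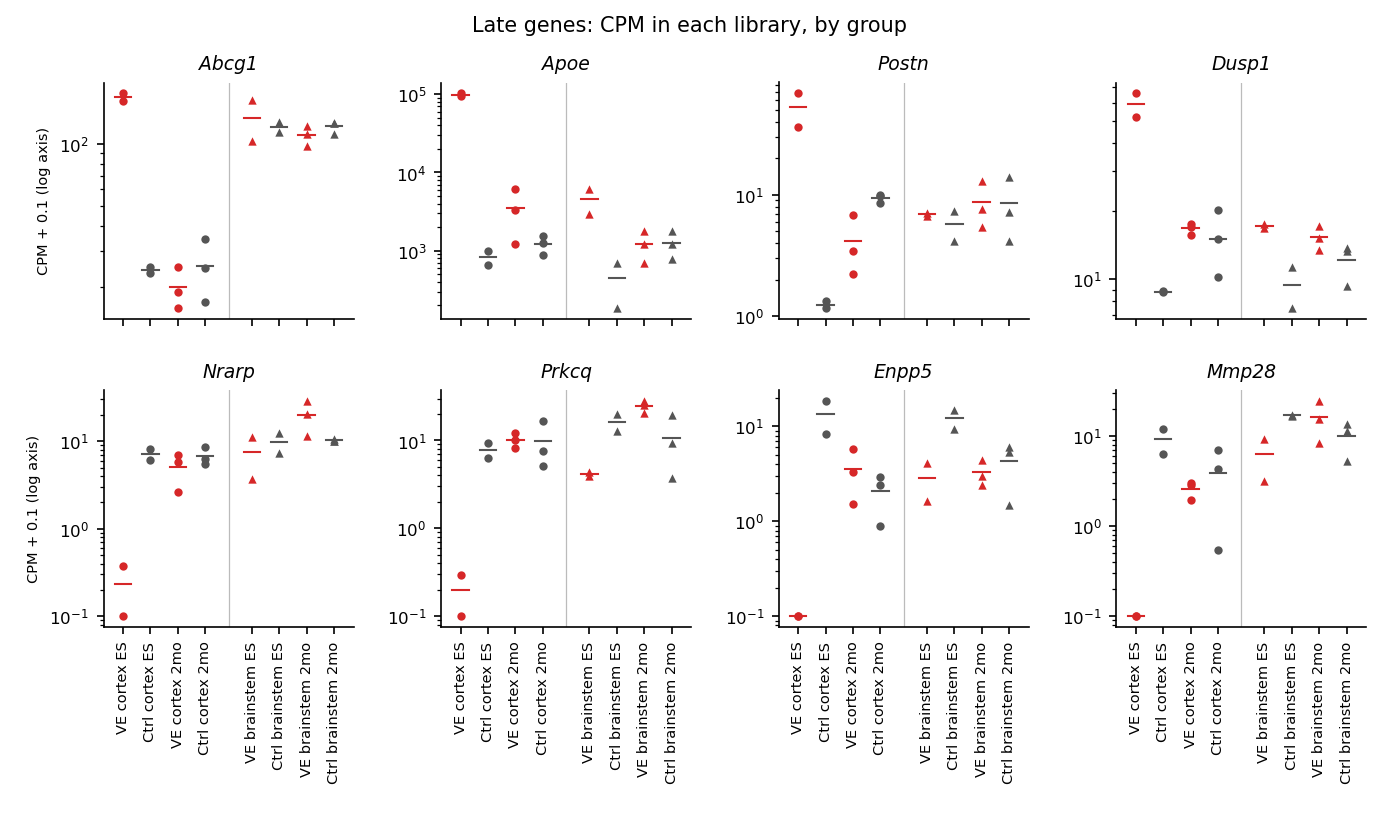
CPM plus 0.1 (log axis) of 8 late genes in every library, VE in red and Ctrl in grey, circles for cortex-labelled and triangles for brainstem-labelled libraries, with a bar at each group's mean. In the upper row the 2 VE cortex-labelled libraries at ES stand above the other cortex-labelled libraries, and in the lower row below them.

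The 14 late genes that fell in VE were a mixed group. Enpp5, of the ectonucleotide pyrophosphatase family, had 0 counts in both VE cortex-labelled libraries at ES, against 18.4 and 8.28 CPM in Ctrl. In the younger mice it had 5.74, 3.23 and 1.44 CPM in VE and 2.84, 0.801 and 2.31 CPM in Ctrl, and the groups overlapped. At ES it was at least 150-fold lower in VE, at 3 counts over the VE group. The matrix metalloproteinase gene Mmp28 also had 0 counts in VE at ES, against 11.9 and 6.23 CPM in Ctrl, and was at least 102-fold lower. The fitted interactions of −11.62 for Enpp5 (adjusted p = 0.00632) and −9.65 for Mmp28 (adjusted p = 0.0424) depend on how 0 counts enter the fit, and both missed the threshold with mouse as a block (adjusted p = 0.0668 and 0.22).

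P2rx1, an ATP-gated ion channel, had 3.05 and 2.47 CPM in VE at ES, against 41 and 49.8 CPM in Ctrl. Values at 2 months were 29.4, 29.1 and 37 CPM in VE and 36.8, 60.7 and 40.8 CPM in Ctrl. The groups were far apart at ES and close together at 2 months, where they overlapped by 1 library. The interaction of −3.50 ± 0.44 (adjusted p = 0.00215) passed in all 10 fits without 1 mouse and with mouse as a block (adjusted p = 0.0287). In brainstem-labelled libraries P2rx1 also fell at ES, to 10.9 and 10.7 CPM in VE against 29.3 and 61.3 CPM in Ctrl (adjusted p = 0.02).

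Prkcq, the protein kinase C isoform theta, had 0 and 0.195 CPM in VE at ES, against 9.32 and 6.23 CPM in Ctrl, and 5.01 to 16.5 CPM at 2 months. The Notch feedback inhibitor Nrarp had 0.273 and 0 CPM in VE at ES, against 8.15 and 5.95 CPM in Ctrl, and 2.5 to 8.52 CPM at 2 months. The tetraspanin gene Upk1b had 5.83 and 6.05 CPM in VE at ES, against 130 and 337 CPM in Ctrl, and 98.8 to 286 CPM at 2 months. For all 3 the 2 VE libraries at ES lay below every other cortex-labelled library. Their interactions were −6.37 ± 1.09, −5.12 and −4.80 (adjusted p = 0.0171, 0.0358 and 0.0247), and none passed with mouse as a block (adjusted p = 0.173, 0.223 and 0.132). Mmp11, a stromelysin, did likewise (interaction −4.59, adjusted p = 0.0408, and 0.139 with the block). The kinase cofactor gene Cks2, the laminin gene Lamb2, the protease gene Klk8, Klhdc8b and Lrba were the other late genes that fell, with interactions of −2.33, −2.88, −2.06, −2.29 and −2.13. At 2 months Cks2 and Lamb2 were higher in all VE than in all Ctrl cortex-labelled libraries (log2 0.78 and 0.77), but did not pass.

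Pecam1, an adhesion molecule of endothelium and some myeloid cells, and Nid2, a basement membrane protein, had lower values in VE than in Ctrl at ES. At 2 months their log2 differences were positive (0.86 and 0.73), with the genotypes apart for Pecam1 and overlapping for Nid2. Nid2 had 0.818 and 1.04 CPM in VE at ES, against 14.6 and 11.1 CPM in Ctrl, whereas at 2 months it had 17.8, 31.5 and 27.3 CPM in VE and 11.9, 16.1 and 18.3 CPM in Ctrl. Only the difference at ES passed. The interaction was −4.51 ± 0.62 for Nid2 (adjusted p = 0.00498, and 0.103 with mouse as a block) and −2.43 for Pecam1 (adjusted p = 0.0408, and 0.132 with the block). The 12 markers of endothelium and pericytes, Pecam1 among them, summed to 36.5 to 61.2 CPM in VE and 24.5 to 38 CPM in Ctrl at ES. At 2 months they summed to 66.5 to 74.1 CPM in VE and 22.6 to 35.4 CPM in Ctrl. Tek was at 0 in all libraries. Their part in these 2 genes was not tested.

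The early genes included several of cell division, 2 of them (Ccna2 and Ccnb1) in the cell cycle list. Ccnb1 and Ccna2, the cyclins of mitosis and of DNA replication, Cenpa, the histone variant of centromeres, Cks1b, a cofactor of cyclin-dependent kinases, and Racgap1, which acts in cytokinesis, were among the 10 early genes that rose in VE at 2 months. The others were the chromatin genes Hmgb2 and H2afx, the cholesterol synthesis enzyme gene Sqle, the surface protein gene Ly6a and the predicted gene Gm11223. Promoter windows of the 5 division and chromatin genes for which RefSeq's table had one are printed here from 250 bases before to 50 after the gene start (build GRCm38.p6), because these genes moved together. Capitals mark the CHR element (TTTGAA or TTCAAA) and the CCAAT box (CCAAT or ATTGG), which are known from cell cycle promoters and were searched on both strands. The windows are chr13:100786437-100786736 (minus strand) for Ccnb1, chr5:30666636-30666935 (plus) for Cenpa, chr3:89418242-89418541 (minus) for Cks1b, chr15:99651607-99651906 (minus) for Racgap1 and chr8:57511593-57511892 (plus) for Hmgb2.
Ccnb1: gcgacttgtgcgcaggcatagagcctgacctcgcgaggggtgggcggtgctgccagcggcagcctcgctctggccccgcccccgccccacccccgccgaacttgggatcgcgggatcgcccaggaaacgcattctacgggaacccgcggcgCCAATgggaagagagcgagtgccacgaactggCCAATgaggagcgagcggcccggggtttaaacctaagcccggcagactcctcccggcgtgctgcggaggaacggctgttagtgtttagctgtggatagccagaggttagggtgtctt
Cenpa: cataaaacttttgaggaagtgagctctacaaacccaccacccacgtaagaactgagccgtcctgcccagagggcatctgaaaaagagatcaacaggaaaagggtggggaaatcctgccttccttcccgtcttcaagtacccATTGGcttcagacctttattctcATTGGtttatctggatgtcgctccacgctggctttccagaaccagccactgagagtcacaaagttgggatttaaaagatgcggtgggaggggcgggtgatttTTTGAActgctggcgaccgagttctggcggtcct
Cks1b: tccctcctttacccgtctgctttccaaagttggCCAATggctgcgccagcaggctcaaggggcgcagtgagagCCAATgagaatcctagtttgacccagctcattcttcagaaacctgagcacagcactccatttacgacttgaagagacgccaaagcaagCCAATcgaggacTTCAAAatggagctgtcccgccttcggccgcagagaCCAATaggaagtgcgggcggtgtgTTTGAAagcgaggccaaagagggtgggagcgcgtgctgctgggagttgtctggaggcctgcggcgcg
Racgap1: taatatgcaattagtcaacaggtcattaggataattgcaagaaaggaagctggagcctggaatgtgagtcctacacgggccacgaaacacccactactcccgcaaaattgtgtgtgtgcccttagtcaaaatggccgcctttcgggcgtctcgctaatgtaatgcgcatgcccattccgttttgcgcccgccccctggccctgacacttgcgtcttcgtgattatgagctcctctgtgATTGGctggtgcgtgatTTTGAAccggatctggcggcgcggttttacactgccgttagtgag
Hmgb2: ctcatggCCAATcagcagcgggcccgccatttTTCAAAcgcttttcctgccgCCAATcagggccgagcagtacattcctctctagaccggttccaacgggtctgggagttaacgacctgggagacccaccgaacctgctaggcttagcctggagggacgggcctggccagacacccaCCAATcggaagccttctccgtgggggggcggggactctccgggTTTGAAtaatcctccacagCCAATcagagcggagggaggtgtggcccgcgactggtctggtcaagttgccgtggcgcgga

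A CCAAT box was found in 6 of the 6 early genes with a window, in 18 of 21 tested cell cycle list genes with one and in 42.6% of the 10643 tested genes with one. A CHR element was found in 5 of 6 early genes, 10 of 21 cell cycle genes and 14.6% of all genes. Among genes of the other classes, CHR elements were found in 5 of 21 late and 24 of 164 constant genes. These matches describe letters in the windows and were not tested.

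Ccnb1 had 0.654 and 1.43 CPM in VE cortex-labelled libraries at ES, against 3.28 and 4.04 CPM in Ctrl. Values at 2 months were 36.1, 29.3 and 33.7 CPM in VE, against 1.64, 2.9 and 1.72 CPM in Ctrl. The 3 VE libraries at 2 months stood far above all others, and at ES both VE libraries lay below both Ctrl libraries. The log2 difference was 3.97 at 2 months (adjusted p = 0.00391) and −1.82 at ES (adjusted p = 0.291), an interaction of −5.80 ± 1.15 (adjusted p = 0.0408). That interaction passed in 2 of the 10 fits that left out 1 mouse. Cenpa had 4.47 and 5.46 CPM in VE at ES against 12.4 and 7.46 CPM in Ctrl, and 40.9, 40 and 38.4 CPM in VE at 2 months against 2.79, 5.31 and 6.28 CPM in Ctrl. It followed the same order, with an interaction of −4.05 ± 0.68 (adjusted p = 0.0145) that was lost only without VE mouse M1376 among the fits that left out 1 mouse.

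H2afx, the histone variant that marks DNA breaks, had 16.1 and 26 CPM in VE at ES against 26.4 and 28.3 CPM in Ctrl, and 94.1, 91.2 and 93.8 CPM in VE at 2 months against 26.8, 26 and 23.1 CPM in Ctrl. Hmgb2 had 21.5 and 23.5 CPM in VE at ES against 32.4 and 30.1 CPM in Ctrl, and 73.9, 77.4 and 78.2 CPM in VE at 2 months against 23.2, 47.3 and 32.3 CPM in Ctrl. In both, the VE libraries at 2 months were close to each other and above all others. Interactions were −2.26 ± 0.33 for H2afx (adjusted p = 0.00671) and −1.63 for Hmgb2 (adjusted p = 0.0427), against −5.75 ± 1.07 for Ccna2, −3.87 for Racgap1 and −2.79 for Cks1b. Of the 10 fits without 1 mouse, 9 passed for H2afx, 7 for Cks1b, 3 for Ccna2, 2 for Hmgb2 and 1 for Racgap1. In edgeR's fit of cortex-labelled libraries alone, Ccna2, Hmgb2 and Racgap1 missed the threshold (adjusted p = 0.0616, 0.115 and 0.102). H2afx, Cks1b, Ccnb1 and Cenpa passed there (adjusted p = 0.017, 0.0427, 0.00455 and 0.0146). In bulk libraries fewer cells that divide and less RNA per dividing cell cannot be told apart.

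The cell cycle list as a whole had the same pattern. Of its 25 tested members, 18 rose in VE at 2 months and 0 fell, while 0 passed at ES, and all 25 had an interaction below 0. Only Ccna2 and Ccnb1 passed the interaction, and 16 members were undecided. The list's median log2 difference was −0.26 at ES and 3.45 at 2 months (all tested genes 0.02 and −0.01), with a median interaction of −3.24. Top2a, the replication topoisomerase, had 0.927 and 1.89 CPM in VE at ES against 0.424 and 7.32 CPM in Ctrl, and 20, 15.4 and 26.5 CPM in VE at 2 months against 1.15, 2.05 and 0.0661 CPM in Ctrl, with an interaction that missed the threshold (−5.70, adjusted p = 0.207). In brainstem-labelled libraries the list's medians were −0.54 at ES and 0.96 at 2 months, and 0 members passed at either stage.

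Sult1a1, a sulfotransferase, was the 1 early gene that fell. It had 181 and 87.4 CPM in VE at ES against 74 and 88.5 CPM in Ctrl, and 37.5, 50.3 and 35.4 CPM in VE at 2 months against 111, 118 and 189 CPM in Ctrl. The groups overlapped at ES and were apart at 2 months (interaction 2.49 ± 0.46, adjusted p = 0.0275).

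Sqle and Ly6a were early genes with no known part in cell division. Sqle, which makes squalene epoxide on the way to cholesterol, had 4.09 and 7.22 CPM in VE at ES against 6.25 and 12.4 CPM in Ctrl, and 28.7, 51.5 and 44.6 CPM in VE at 2 months against 7.65, 9.02 and 5.95 CPM in Ctrl. Ly6a, an interferon-inducible surface protein, had 5.78 and 23.4 CPM in VE at ES against 15.7 and 21.4 CPM in Ctrl, and 143, 156 and 106 CPM in VE at 2 months against 7.49, 12.6 and 8.32 CPM in Ctrl. Both were high in the 3 VE libraries at 2 months and overlapped between genotypes at ES. Interactions were −3.19 for Sqle and −4.18 for Ly6a (adjusted p = 0.0408 and 0.0487), and they passed in 1 and 2 of the 10 fits without 1 mouse.

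**Figure D3:**
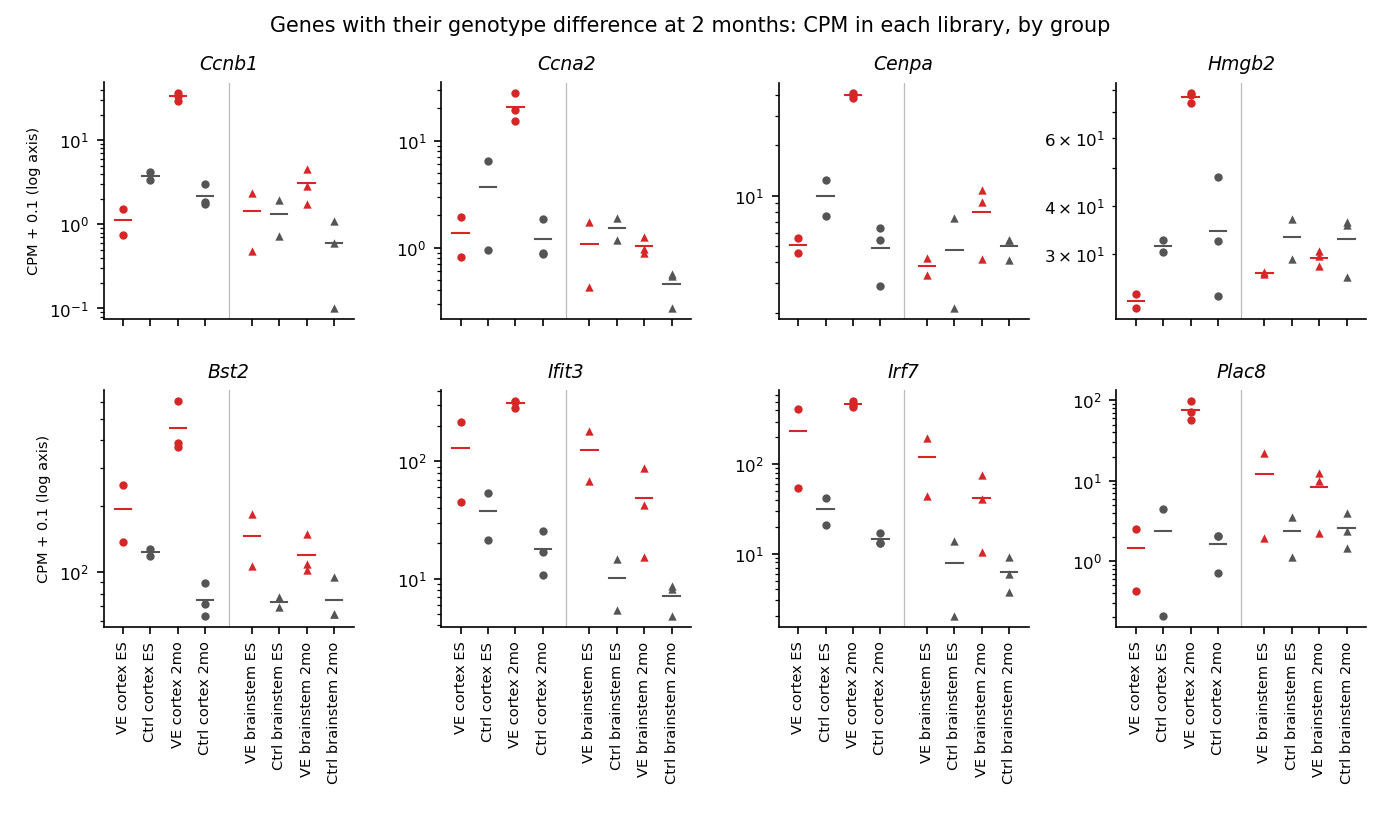
CPM plus 0.1 (log axis) in every library of 4 early cell cycle genes (upper row) and of 3 interferon genes and the monocyte marker Plac8 (lower row), VE in red and Ctrl in grey, circles for cortex-labelled and triangles for brainstem-labelled libraries, bars at group means. The 3 VE cortex-labelled libraries at 2 months lie above all other cortex-labelled libraries in all 8 panels.

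Interferon response genes rose in VE at 2 months, but whether they differed between stages was not decided. Of 21 tested members of the interferon list, 20 rose at 2 months and 0 passed at ES in cortex-labelled libraries, and 0 passed the interaction. The list's median log2 difference was 1.79 at ES and 4.54 at 2 months, all 21 members were above 0 at both stages, and the median interaction was −2.34. Irf7, the interferon regulatory factor that amplifies the response, had 54.6 and 415 CPM in VE at ES against 20.7 and 42.4 CPM in Ctrl, and 434, 510 and 464 CPM in VE at 2 months against 13.2, 17.1 and 13.1 CPM in Ctrl. VE mouse M1524 was near the 2-month level and VE mouse M1376 near the controls, so the 2 ES mice differed from each other. Its interaction was −2.13 ± 1.18 (adjusted p = 0.568).

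Ifit3, an antiviral effector, had 45.3 and 216 CPM in VE at ES against 21.1 and 53.6 CPM in Ctrl, and 327, 287 and 323 CPM in VE at 2 months against 16.9, 25.6 and 10.6 CPM in Ctrl (interaction −2.34, adjusted p = 0.438). Its promoter is printed with the interferon-stimulated response element (ISRE, GAAA and GAAA with 2 bases between, or TTTC and TTTC likewise) in capitals, at chr19:34583279-34583578 (GRCm38.p6, plus strand).
Ifit3: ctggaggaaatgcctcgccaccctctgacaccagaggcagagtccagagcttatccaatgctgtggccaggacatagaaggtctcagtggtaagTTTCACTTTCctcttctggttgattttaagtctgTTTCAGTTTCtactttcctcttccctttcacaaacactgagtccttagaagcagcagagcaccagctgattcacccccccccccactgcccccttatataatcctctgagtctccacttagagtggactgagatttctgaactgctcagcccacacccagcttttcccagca

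An ISRE was found in 9 of 15 interferon list genes with a window and in 3.94% of all tested genes with one. Bst2, the antiviral protein tetherin, came closest to an interaction call in that list, with 137 and 251 CPM in VE at ES against 128 and 119 CPM in Ctrl, and 389, 603 and 371 CPM in VE at 2 months against 63, 89.4 and 71.3 CPM in Ctrl (interaction −1.96 ± 0.42, adjusted p = 0.0588). In brainstem-labelled libraries the list's medians were 3.26 at ES and 2.78 at 2 months, with all 21 members above 0 at both stages and 0 passing. Over the summed counts of each mouse, 3 members were constant and 17 undecided.

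The summed markers of monocytes were higher in VE at both stages, but at ES only 1 of them passed. The 10 markers summed to 116 to 198 CPM in VE cortex-labelled libraries at ES against 25.5 to 37 CPM in Ctrl, and to 212 to 264 CPM in VE at 2 months against 28.9 to 51.2 CPM in Ctrl. Ly6c2, a defining marker, reached at most 1.13 CPM in any library. Of the 8 tested, 1 rose at ES and 3 at 2 months, beside 1.83% and 3.64% of all tested genes. At ES 5 of the 8 were above 0, and at 2 months 7. The median log2 difference was 0.53 at ES and 2.44 at 2 months, and the median interaction was −0.17, with 4 of 8 above 0. Members did not follow 1 pattern. Ms4a6c was constant, with 84.7 and 113 CPM in VE at ES against 18.2 and 17 CPM in Ctrl, and 56.8, 66.5 and 60.3 CPM in VE at 2 months against 19.7, 26.5 and 25.1 CPM in Ctrl. Plac8 had 57.5, 97.9 and 72.3 CPM in VE against 0.601, 1.95 and 1.98 CPM in Ctrl, and at ES 0.327 and 2.41 CPM in VE against 0.106 and 4.38 CPM in Ctrl. Their part in the interferon and cell cycle results was not tested.

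Graded genes were higher in Ctrl at both stages and farther apart at ES. Gimap6 and Gimap9, GTPases of immune cells, the spindle-associated gene Fam110a and the predicted gene Gm13889 formed this class. Fam110a had 26.7 and 22.7 CPM in VE at ES against 122 and 104 CPM in Ctrl, and 81.1, 106 and 76.5 CPM in VE at 2 months against 128, 139 and 126 CPM in Ctrl. Gimap9 had 0.763 and 1.69 CPM in VE at ES against 16.1 and 18.1 CPM in Ctrl, and 8, 14.4 and 10.1 CPM in VE at 2 months against 21.8, 21.3 and 21.1 CPM in Ctrl. The genotypes were apart at both stages for both genes, and Ctrl values lay close together across stages. Interactions were −1.62 ± 0.24 for Fam110a (adjusted p = 0.00671), −2.83 ± 0.47 for Gimap9 (adjusted p = 0.0145) and −2.15 ± 0.41 for Gimap6 (adjusted p = 0.0378), and with mouse as a block only Fam110a of these 3 passed (adjusted p = 0.0259, against 0.0848 for Gimap9 and 0.129 for Gimap6).

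The shift with stage lay mostly in VE mice. Between ES and 2 months the group means of late genes moved more in VE than in Ctrl for 28 of 29 genes, with a median shift of 2.70 in VE and 0.33 in Ctrl (absolute log2 of CPM plus 0.1). For early genes this held for 11 of 11 (2.86 in VE and 0.78 in Ctrl) and for graded genes for 4 of 4 (2.69 and 0.21). These shifts are part of the interaction that chose the genes and are given as a description.

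The constant class, 133 genes higher and 116 lower in VE, held disease-associated and inflammatory genes that were up at both stages. Rassf3, a RAS association domain gene, had 89.6 and 115 CPM in VE at ES against 20.5 and 22.4 CPM in Ctrl, and 55.6, 58.3 and 72.3 CPM in VE at 2 months against 19.4, 15.5 and 14.9 CPM in Ctrl. The genotypes were well apart at both stages, and the log2 differences of 2.25 and 1.90 differed by 0.35 ± 0.28 (adjusted p = 0.715). Rassf3 was constant over mouse sums too, and it rose at ES in brainstem-labelled libraries (33.9 and 28 CPM in VE, 11.7 and 10.6 CPM in Ctrl, adjusted p = 0.016). Axl, a receptor kinase for dying cells, had 1080 and 2120 CPM in VE at ES against 17.9 and 66.7 CPM in Ctrl, and 915, 716 and 711 CPM in VE at 2 months against 36.4, 34.4 and 11.2 CPM in Ctrl (log2 5.23 and 4.83).

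Il1b, the cytokine interleukin 1 beta, had 91.4 and 74.1 CPM in VE at ES against 6.67 and 10.9 CPM in Ctrl, and 43.4, 61.4 and 44.5 CPM in VE at 2 months against 2.08, 3.61 and 3.7 CPM in Ctrl. Egr1, an ERK-induced transcription factor, had 159 and 161 CPM in VE at ES against 7.2 and 3.63 CPM in Ctrl, and 40.4, 139 and 70 CPM in VE at 2 months against 7.71, 7.61 and 20.2 CPM in Ctrl. For both, every VE library was above every Ctrl library. C4b, of complement, Klrb1b, a lectin-like receptor, and the microglial activation genes Spp1 and Itgax were also constant, with log2 differences of 7.21, 9.26, 6.01 and 3.82 at ES and 8.13, 5.99, 4.86 and 2.67 at 2 months.

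Genes that fell at both stages included receptors of resting microglia. P2ry12, the ADP receptor of resting processes, had 1930 and 1050 CPM in VE at ES against 3840 and 3890 CPM in Ctrl, and 2920, 2260 and 3490 CPM in VE at 2 months against 5760, 6510 and 6270 CPM in Ctrl. P2ry13, a related receptor, had 982 and 943 CPM in VE at ES against 2530 and 2520 CPM in Ctrl, and 1560, 1600 and 1570 CPM in VE at 2 months against 3410, 3300 and 2660 CPM in Ctrl. The genotypes were apart at both stages for both genes, with log2 differences of −1.38 and −1.39 at ES and −1.10 and −0.99 at 2 months. The lysophospholipid receptor gene Gpr34 (−1.21 at ES, −1.41 at 2 months), the platelet glycoprotein gene Gp9 (−3.86, −2.20), the methionine sulfoxide reductase gene Msrb2 (−1.34, −0.98), Tnfrsf17 (−3.35, −2.22) and Cd79b (−2.07, −1.33), receptor genes known from B-lineage cells, fell as well. The 7 B and plasma cell markers, Cd79b among them, summed to 276 to 279 CPM in VE at ES against 767 to 842 CPM in Ctrl, and to 423 to 633 CPM in VE at 2 months against 656 to 766 CPM in Ctrl, and their part in this was not tested.

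Constant does not mean shown to be equal. For 110 of the 249 genes the 95% interval of the interaction lay within ±1 log2, the median interval reached 0.74 to either side, and 183 had the larger difference at ES. The fold of the others could have changed by more than 1 log2 between stages without a call at this depth and number of mice.

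Genes of protein synthesis were among the constant genes that rose. Eef1a1, the translation elongation factor, had 2260 and 2130 CPM in VE at ES against 876 and 1080 CPM in Ctrl, and 2030, 1800 and 1680 CPM in VE at 2 months against 878, 877 and 877 CPM in Ctrl. The genotypes were far apart at both stages (log2 1.17 at ES, adjusted p = 0.000137, and 1.07 at 2 months, adjusted p = 0.000106), and the interaction was 0.10 ± 0.18. The 77 tested genes of cytoplasmic ribosomal proteins, a group taken up after its values were seen, behaved alike. Of these, 37 rose at ES and 60 at 2 months in cortex-labelled libraries, 0 fell at either stage, and 37 were constant, against 1.5% of all tested genes. Their median log2 difference was 0.92 at ES and 1.03 at 2 months, and the median interaction was −0.11.

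Summed over the 77 genes, VE cortex-labelled libraries at ES had 13840 and 11760 CPM, against 6369 and 7073 CPM in Ctrl. At 2 months they had 11950, 14210 and 9507 CPM in VE, against 4970, 6309 and 6312 CPM in Ctrl. Every VE library thus lay above every Ctrl library at both stages. In brainstem-labelled libraries the sums were 7560 to 8880 CPM in VE and 5240 to 6430 CPM in Ctrl at ES, and 7120 to 9880 CPM in VE and 5800 to 8040 CPM in Ctrl at 2 months, with medians of 0.47 and 0.13 and 0 genes called. The count of constant genes among the 77 fell to 2 without Ctrl mouse M1375, 4 without VE mouse M1376, 7 without Ctrl mouse M1521 and 13 without VE mouse M1524, though the medians stayed at 0.79 to 1.05 at ES. Under the record reading the median at 2 months was −0.65 and 0 genes passed. Ribosomal protein genes have many near-identical processed copies in the genome, and how such reads were counted was not given, so their counts are uncertain gene by gene.

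The members of each list were read beside all tested genes, of which 1.83% rose and 2.18% fell at ES, and 3.64% rose and 1.81% fell at 2 months, with medians of 0.02 and −0.01; lists were not tested against each other. Of 26 disease-associated genes, 14 rose at ES and 11 at 2 months, 0 fell, 3 were late (Apoe, Fabp5 and Igf1) and 8 constant, with medians of 1.96 and 0.79. The transmembrane glycoprotein gene Gpnmb had 21.3 and 66.7 CPM in VE at ES against 0 counts in both Ctrl libraries, which made it at least 353-fold higher when the Ctrl group is set to 3 counts. At 2 months it had 2.57, 0.461 and 1.6 CPM in VE and 0.0547, 0.601 and 0 CPM in Ctrl, and its interaction did not pass (adjusted p = 0.207). The lipase gene Lpl had 452 and 217 CPM in VE at ES against 10.4 and 23.2 CPM in Ctrl, and overlapped between genotypes at 2 months (interaction 3.33 ± 1.02, adjusted p = 0.241). In the lipid and cholesterol list 7 of 22 rose at ES, and at 2 months 5 rose and 1 fell (medians 0.74 and 0.53).

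Of 21 homeostatic genes, 11 fell at ES and 7 at 2 months, 0 rose, and 6 were constant (medians −0.97 and −0.49). Selplg, a selectin ligand, had 3810 and 5510 CPM in VE at ES against 10600 and 9910 CPM in Ctrl, and overlapped between genotypes at 2 months (8010 to 10300 CPM in VE and 9920 to 10600 CPM in Ctrl), but its interaction did not pass (−0.96 ± 0.27, adjusted p = 0.182). Of 18 AP-1 and EGR early genes, 6 rose and 3 fell at ES, and 1 rose and 1 fell at 2 months (medians 1.02 and 0.03). Among them Egr2 had 73.1 and 51.8 CPM in VE at ES against 5.72 and 1.16 CPM in Ctrl, and 5.68, 8.51 and 6.13 CPM in VE at 2 months against 2.19, 4.16 and 2.05 CPM in Ctrl (interaction 2.95 ± 0.95, adjusted p = 0.286). In the matrix list 6 of 16 rose and 1 fell at ES, and 4 rose and 1 fell at 2 months (medians 1.97 and 0.73).

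Of 17 cytokines and chemokines, 5 rose and 2 fell at ES, and 11 rose at 2 months (medians 2.00 and 1.83). Antigen presentation genes had 0 calls at ES and 8 of 17 rises at 2 months (medians 0.27 and 0.98), and glycolysis 0 at ES and 5 of 18 at 2 months (0.04 and 0.43). In the lysosome list 4 of 25 rose and 1 fell at ES and 9 rose at 2 months (0.46 and 0.53), and in the complement list 2 of 14 rose at ES and 5 at 2 months (0.54 at both). ERK output genes, which read the cascade that BRAF drives, had 0 of 15 called at ES and 1 rise at 2 months (0.46 and 0.80), beside the 3.64% of all tested genes that rose then. Senescence-linked genes had 3 of 14 rises at ES and 4 at 2 months (1.07 and 1.31), among them Cdkn2a, a cell cycle inhibitor, with 2.4 and 3.71 CPM in VE at ES against 0.106 and 0.205 CPM in Ctrl and a difference at 2 months that did not pass (adjusted p = 0.272). Identity transcription factors and TGF-beta genes had 3 rises and 2 falls of 20 at ES, and 1 of each at 2 months (−0.08 and 0.10).

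**Figure D4:**
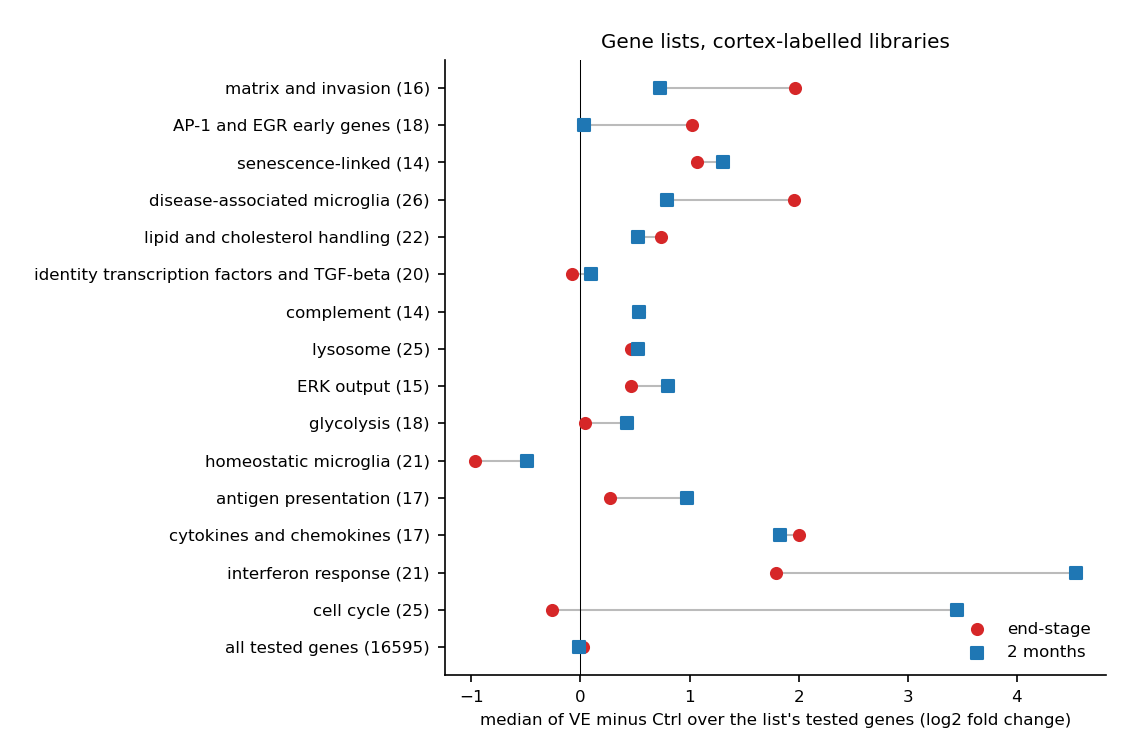
Median VE minus Ctrl log2 difference of each gene list in cortex-labelled libraries at ES (red circles) and at 2 months (blue squares), number of tested genes in brackets, lists ordered by median interaction. Cell cycle has −0.26 at ES and 3.45 at 2 months, and interferon response 1.79 and 4.54, while matrix, AP-1 and EGR and disease-associated genes have the larger median at ES; complement has 0.54 at both, so its points coincide.

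In brainstem-labelled libraries 1 of 16595 genes passed the interaction (0.00603%), 25 the genotype difference at ES (0.151%) and 6 that at 2 months (0.0362%), and 0 passed at both stages. The 1 gene was Jun, the AP-1 subunit. It had 46.7 and 52.8 CPM in VE brainstem-labelled libraries at ES against 163 and 163 CPM in Ctrl, and 112, 122 and 129 CPM in VE at 2 months against 113, 98.5 and 125 CPM in Ctrl. The 2 VE libraries at ES were lowest of the 10, and the genotypes overlapped at 2 months. Its interaction was −1.82 ± 0.26 (adjusted p = 0.0361), and it passed in 1 of the 10 fits without 1 mouse and with mouse as a block (adjusted p = 0.0215). In cortex-labelled libraries Jun fell at ES too, to 62.8 and 63.4 CPM in VE against 183 and 133 CPM in Ctrl (adjusted p = 0.00153), with an interaction of −0.96 that did not pass (adjusted p = 0.172).

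The cortex interactions were set beside those of brainstem-labelled libraries. The sign was the same for 27 of 29 late, 9 of 11 early and 4 of 4 graded genes, and for 8430 of 15278 genes in no class. The median size for late genes was 0.83 in brainstem-labelled and 3.14 in cortex-labelled libraries, and for early genes 0.96 and 3.87. Because these genes were chosen on the cortex values, and the 2 regions come from the same mice, neither the sizes nor the signs are a test. A test of the difference between the 2 interactions passed for 0 of 16595 genes (0%) with edgeR, for 9 with DESeq2 and for 4 with mouse as a block. In the edgeR test 822 genes had an unadjusted p under 0.05, near the share that this cutoff passes when no gene differs. Constant genes kept their sign in brainstem-labelled libraries for 244 of 249 at ES and 224 of 249 at 2 months, beside 9784 and 9073 of the 15278 genes in no class, with median sizes of 0.77 and 0.38 against 1.44 and 1.20 in cortex-labelled libraries.

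**Figure D5:**
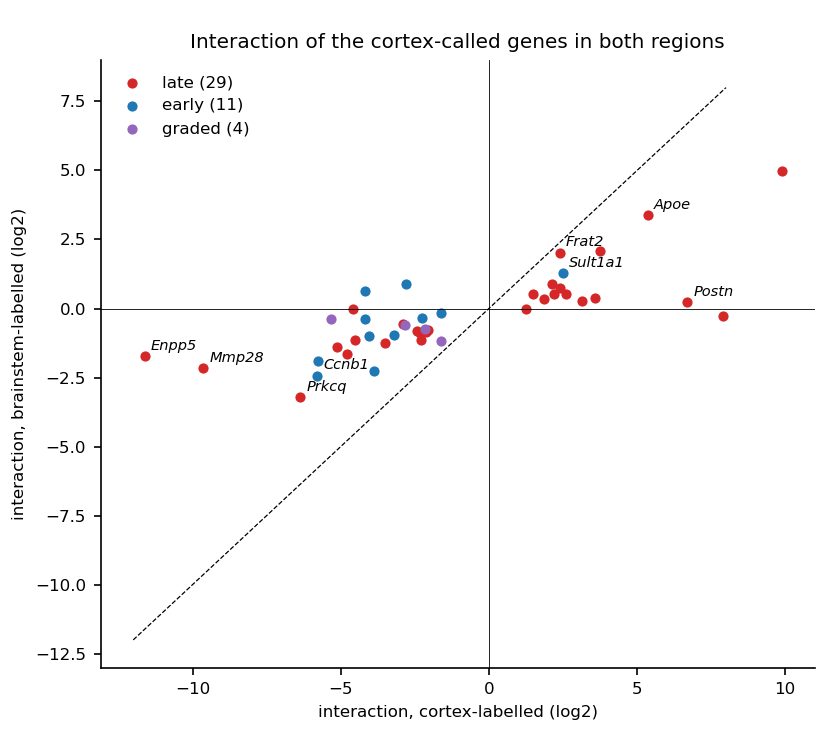
Interaction in brainstem-labelled libraries (vertical axis, log2) against that in cortex-labelled libraries (horizontal axis, log2) for the 44 genes called in cortex-labelled libraries, coloured by class, with a dashed line of equal values. Most points lie on the same side of 0 on both axes and closer to 0 on the vertical one, and Frat2 lies near the line.

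When the 2 libraries of each mouse were summed so that each of the 10 mice counted once, 364 of 17272 genes passed at ES (2.11%) and 486 at 2 months (2.81%). The interaction passed for 1 gene (0.00579%), and 1158 had an unadjusted p under 0.05. That gene was Cdc25c, the phosphatase that starts mitosis. In cortex-labelled libraries it had 0 and 0.065 CPM in VE at ES against 0 and 1.44 CPM in Ctrl, and 5.93, 4.31 and 6.74 CPM in VE at 2 months against 0, 0.0501 and 0 CPM in Ctrl. The 3 VE mice at 2 months stood above all others, as for the other cell cycle genes. Its interaction over mouse sums was −10.55 ± 1.07 (adjusted p = 0.0215), and it depends on counts near 0. The voom fit with mouse as a block tested another quantity, the mean of the 2 regional interactions over libraries. For Cdc25c that mean was −6 and missed the threshold (adjusted p = 0.354).

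By mouse sums 135 genes were constant (99 higher and 36 lower in VE), 1 was early and 0 were late. Of the 249 constant genes of the cortex-labelled libraries, 103 were constant again and 73 were called at neither stage. Of the 29 late genes 17 were called at ES alone with no interaction call, 3 at 2 months alone and 9 at neither stage, and of the 11 early genes 9 were called at 2 months alone and 2 at neither stage. Abcg1, Bambi, Apoe, Postn and Fabp5 were called at ES in these sums and not at 2 months, with interactions of 1.15, 3.56, 5.36, 3.40 and 3.19.

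The number of mice limits these calls. Without 1 mouse the cortex interaction passed for 10 genes (Ctrl mouse M1375 left out) to 108 (VE mouse M1524 left out), and by DESeq2 for 238. The direction of all 44 held in each of these fits. Late genes numbered 6 without M1375 and 51 without M1524, early genes 1 without M1376 and 42 without M1524, and constant genes 81 without M1375.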

How the data were processed

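Bulk RNA of microglia was read as full-length cDNA (SMART-Seq v4, 12 cycles of cDNA and 8 of library amplification) and sequenced in pairs, per the labels' protocols. What the authors deposited is a single table that holds a raw count for each Ensembl gene in all 20 libraries. The submitters' processing notes name FastQC, Subread, edgeR and mm10, without versions. On strandedness and on reads with several matches, nothing was given in the sources used here.

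Columns were tied to samples by their description and to genotype by the mouse number. The members, gene lists and rules were chosen with earlier results of these data known. Counts were fitted in R 4.3.3 with edgeR 4.0.16 (filterByExpr, TMM, quasi-likelihood test, 8 groups of genotype, stage and region over 20 libraries, 12 residual degrees of freedom), and, summed per mouse, with 4 groups (6 degrees of freedom). Benjamini-Hochberg adjustment ran over all tested genes at 0.05, and errors are the SE of the log2 difference unless named SD. That SE was worked back from the quasi-likelihood test, as the size of the log2 difference over the square root of the F statistic. It is unreliable where a group has 0 counts, as for the constant gene Egfem1 (SE of the cortex interaction 6506.44). CPM is a count scaled by its library's total and TMM factor (0.891 to 1.157), with no correction for gene length. Each mouse gave 2 libraries, which therefore share an animal. Deviations of same-mouse libraries from their group means correlated weakly (r of 0.101 to 0.265 over the 10 mice). At ES both mice of a genotype have the same r, because a group holds 2 mice, and libraries of different mice were not compared. The edgeR fit over libraries has no term for the shared animal, and mouse as a block was fitted with limma 3.58.1 (voom, duplicateCorrelation). Alternatives were DESeq2 1.42.0, its size factors in edgeR, no count filter, single regions, each mouse left out, the record reading of genotype and, added after the data were seen, a Y-linked covariate. The procedure was tested on simulated data. Those counts were drawn independently for each library, with changes set in cortex-labelled libraries only. The simulation therefore cannot speak to the shared animal or to the label conflict. Genes were named by rules on the size of the interaction among genes that passed, the smallest p in each class, each list's members with the smallest interaction p, and a fixed set. The ribosomal protein genes, Cspg4, Olig1, Plac8, Ms4a6c, Ly6c2 and the late, early and constant genes outside those rules were named after their values were seen. Limits from a count of 0 cover counting error only. The intervals of the interaction were built on its SE in the quasi-likelihood fit, which takes in the spread between libraries of a group. Symbols came from a gene name table, which matched 55094 of 55487 IDs, and promoter windows from RefSeq (GRCm38.p6).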

Additional observations from a re-analysis of the deposited data

Results flagged for a closer look

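A test of the interaction itself found that the genotype difference was not the same at ES as at 2 months for 44 genes in cortex-labelled libraries, for 1 gene (Jun) in brainstem-labelled libraries and for 1 gene (Cdc25c) over mouse sums. Among the genes so marked in cortex-labelled libraries, with VE and Ctrl values apart at 1 or both stages, the interaction was 6.69 for Postn, 5.35 for Apoe, 3.76 for Bambi, 3.57 for Fabp5, 3.14 for Abcg1, 2.60 for Dusp1, 2.49 for Sult1a1 and 2.39 for Frat2. It was −11.62 for Enpp5, −9.65 for Mmp28, −6.37 for Prkcq, −5.80 for Ccnb1, −5.75 for Ccna2, −5.12 for Nrarp, −4.80 for Upk1b and −4.59 for Mmp11. For Jun in brainstem-labelled libraries it was −1.82.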

How the results depend on the processing

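Counts are given in the order cortex interaction, ES and 2 months, brainstem the same, region difference, mouse sums the same, then late, early and constant genes and constant genes over mouse sums. Only counts beyond 1.5 times the values of the report are named.

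Read from the record, counts were 75, 171 and 1 in cortex-labelled and 4, 1 and 1 in brainstem-labelled libraries, 2, 6 and 1 over mouse sums, and 70 late, 0 early, 0 constant and 0 constant over mouse sums. With the 6 mice of agreed genotype they were 2, 352 and 1 in cortex-labelled libraries, 1 at 2 months in brainstem-labelled ones, 166 at ES and 3 at 2 months over mouse sums, 1 late, 1 early, 0 constant and 1 constant over mouse sums. DESeq2 gave 238, 1194 and 1532, then 12, 356 and 193, region difference 9, mouse sums 178, 1156 and 1198, late 112, early 88, constant 416 and 440. Without the count filter they were 565, 1282 and 1551, then 190, 574 and 499, region difference 175, mouse sums 510, 1330 and 1438, late 215, early 189, constant 456 and 493. With the libraries of 1 region alone, the brainstem counts were 0, 4 and 2, and 18 genes were late. The Y-linked covariate, chosen after seeing the data, gave 0, 64 and 11 in brainstem-labelled libraries, region difference 1, interaction over mouse sums 2 and early 18. With mouse as a replicate block in voom, brainstem calls were 42 at ES and 11 at 2 months, and early genes numbered 20. In place of mouse sums, that fit tested the mean of the cortex and brainstem differences over libraries. Its counts for that mean were 10, 725 and 768, with 260 constant genes. In edgeR with a mouse block the region difference was 4. Beyond the calls given in the report, the cortex interaction passed in voom for 42 genes, 28 of them among the 44.

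Without 1 mouse, calls ran from 10 to 108, 180 to 672 and 462 to 962 in cortex-labelled libraries, and 0 to 1, 7 to 43 and 0 to 12 in brainstem-labelled ones. The region difference ran from 0 to 1, mouse sums from 0 to 8, 38 to 396 and 233 to 570, late genes from 6 to 51, early from 1 to 42, constant from 81 to 224, and constant over mouse sums from 23 to 124. The lowest counts at ES came without Ctrl mouse M1375.

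Gene values reversed under the record reading alone. The 2-month difference became −1.13 for Axl, −1.10 for Bst2, −1.33 for C4b, 0.07 for Cd79b, −0.60 for Cdc25c, −0.45 for Eef1a1, −0.94 for Egr1, 0.39 for Gp9, 0.58 for Gpr34, −0.87 for Ifit3, −1.10 for Il1b, −0.97 for Irf7, −0.55 for Itgax, 0.30 for Msrb2, 0.41 for P2ry12, 0.24 for P2ry13, −0.28 for Rassf3, 0.53 for Tnfrsf17 and −0.43 for Top2a. The interaction became 0.76 for Cks1b, 0.17 for H2afx, 0.10 for Hmgb2, 1 for Ly6a and 0.21 for Racgap1. The record reading assigns 4 mice the other genotype; which reading is right was not tested. Depth limits genes under a few CPM, and 2 mice per genotype at ES limit every interaction.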
